A study of Mus musculus with 8 samples.

Results

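Phosphatidylcholine and phosphatidylethanolamine are made in the liver by the enzymes described here, which were chosen as a fixed set of 10 gene symbols and found by gene name among the 55536 genes of the deposited count table. All 10 were matched, each to 1 gene, and all 10 passed the filter on low counts, which left 15375 genes. Liver RNA came from lean wild-type C57BL/6 mice aged 2 months that had been given 0.1 OD of adenovirus 1 week earlier and were fasted overnight before the liver was taken. The virus carried a short hairpin RNA against Eif4ebp3 in the knockdown group (shEif4ebp3, n = 4) or against the bacterial gene lacZ in the control group (shLacZ, n = 4), so all 8 mice had received a hairpin virus; the labels name no cell type to which the hairpin is limited. Total estimated counts ranged from 24371461 to 32389444 per sample.

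Choline and ethanolamine enter membrane lipids through the CDP-base pathway, also named after Kennedy. A kinase phosphorylates the base, a CTP-transferring enzyme joins the phosphorylated base to CTP, and a phosphotransferase moves it onto diacylglycerol. Hepatocytes also make phosphatidylcholine by methylating phosphatidylethanolamine with S-adenosylmethionine, a reaction of the enzyme PEMT. Choline is recovered when phosphatidylcholine is stripped of its fatty acids to glycerophosphocholine and this is cut by a diesterase such as GPCPD1. In liver these lipids also coat lipoproteins and are secreted into bile.

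The genes of this set did not move together. Of the 10, 7 were lower and 2 higher in the knockdown samples by edgeR's quasi-likelihood test with a Benjamini-Hochberg adjusted p under 0.05, where 57.2% of all genes tested passed (27.8% lower and 29.5% higher). The median log2 fold change of the 10 was -0.42, against -0.00 for all genes tested (knockdown over control). Gpcpd1, the glycerophosphocholine diesterase gene, fell 6.13-fold and Etnk2, an ethanolamine kinase gene, 2.08-fold, while Chka, the choline kinase alpha gene, rose 2.19-fold. In 8 of the 10 the groups were fully apart, 2 of them higher and 6 lower, a state found for 52.1% of all genes tested (27.4% higher and 24.7% lower). These values are on TMM-normalised counts scaled to library size (CPM), a scale centred on the typical gene. With scaling to the total count alone the median of all genes moved to 0.56 and that of the set to 0.15, and 3 of the set were higher and 2 lower, against 63.9% and 7.72% of all genes. In bulk liver RNA, fewer cells of a type and less RNA per cell cannot be told apart.

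**Figure D1:**
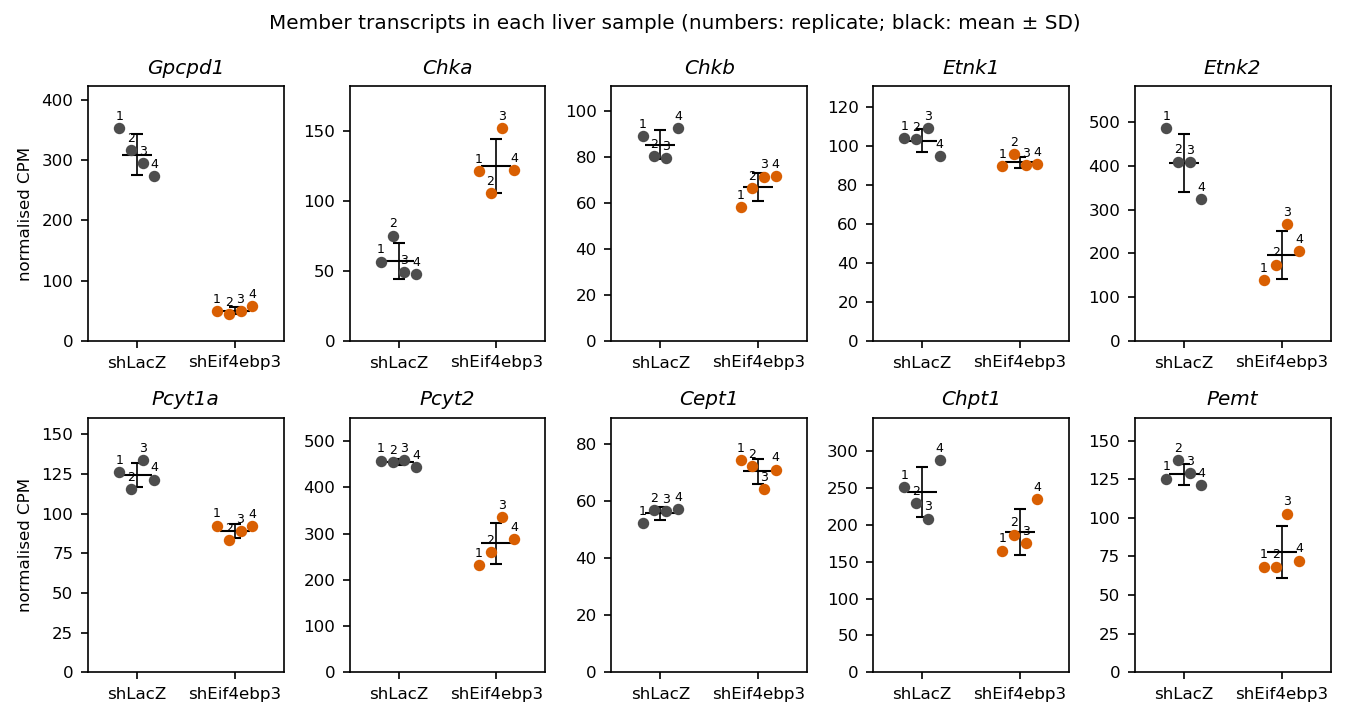
Normalised CPM (vertical axes, each starting at 0) of the 10 genes in the 4 shLacZ and 4 shEif4ebp3 samples; points are samples numbered by replicate, and black bars are the mean ± SD. The knockdown samples of Gpcpd1 lie between 44.7 and 58.1 CPM against 273 to 352 CPM in the controls, and the groups overlap only for Chpt1 and Etnk1.

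The targeted gene was checked first. Eif4ebp3, which encodes a repressor of cap-dependent translation, held 289, 215, 204 and 49.3 CPM with shLacZ (replicates 1 to 4) and 9.61, 13.9, 37.2 and 19.5 CPM with shEif4ebp3 (replicates 1 to 4). The groups did not overlap, but control replicate 4 was the lowest control and knockdown replicate 3 the highest knockdown sample. Of this gene's exon bases, 67.3% are shared with another gene on the same strand. Control replicate 4 and knockdown replicate 4 carry the letter D in their sample codes and the other 6 samples the letter C; what the letters stand for was not stated. The C-coded samples alone gave 2 higher and 8 lower genes of the set, where 4564 of all 15398 genes tested were higher and 4275 lower. The D-coded samples, 1 per group, give no test.

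Cell type markers moved in the same samples, where 29.5% of all genes tested were higher and 27.8% lower. Of 12 hepatocyte markers, 10 were lower and 0 higher, with summed levels of 74450 to 95174 CPM with shLacZ and 64202 to 84133 CPM with shEif4ebp3, ranges that overlap. Of 19 macrophage markers tested, 17 were higher, and their sum was 841 to 1047 CPM against 2188 to 2610 CPM. Of 17 T and NK cell markers 15 were higher and 1 lower (24.6 to 49.3 against 82.5 to 112 CPM). Of 14 stellate cell markers 11 were higher and 0 lower (218 to 264 against 613 to 1048 CPM). Of 8 cholangiocyte markers tested 5 were higher and 1 lower (65.9 to 83.9 against 101 to 136 CPM). Of 12 endothelial markers 1 was higher and 2 were lower (473 to 530 against 315 to 561 CPM). Of 7 B cell markers 2 were higher and 0 lower (7.63 to 13.2 against 12.3 to 16.2 CPM), and of 6 neutrophil markers 1 was higher and 0 lower (4.27 to 10.8 against 10.4 to 18.8 CPM). No marker of these lists was at 0 in all samples. These counts moved with the scaling, as did those of all genes tested (63.9% higher and 7.72% lower under total-count scaling). Under total-count scaling 2 hepatocyte markers were higher and 5 lower, 4 endothelial markers were higher and 0 lower, and 4 B cell and 2 neutrophil markers were higher. Without knockdown replicate 1, 0 endothelial markers were higher and 6 lower; without control replicate 1 or 3 or knockdown replicate 2, 0 were higher, and without knockdown replicate 3, 2 were. The macrophage, T and NK cell, stellate and cholangiocyte lists had 18, 15, 13 and 7 higher markers and 0, 1, 0 and 0 lower ones under total-count scaling. The part of these cells in the changes described here was not tested.

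Upstream sequences are shown for Chka and Chkb, the choline kinase genes that differed in direction, and for Etnk2 and Pemt, members of the ethanolamine kinase and methylation steps that fell. RefSeq start sites on GRCm38.p6 matched 8 of the 10 genes, at 13 starts (Pcyt2 and Gpcpd1 were not matched). Each line gives, 5′ to 3′ on the strand of the gene, 250 bases before to 50 bases after the start, and capitals mark matches on either strand to the GC box bound by Sp1 (GGGCGG), the CCAAT box, the TATA box (TATAAA), an E-box (CACGTG), an AP-1 site (TGANTCA) or an antioxidant response element (TGACNNNGC), some of which can overlap. The positions are chr19:3851523-3851822 (plus strand) for Chka, chr15:89429878-89430177 (minus strand) for Chkb, chr1:133363322-133363621 (plus strand) for Etnk2 and chr11:60040139-60040438 (minus strand) for the first of 2 starts of Pemt.
Chka: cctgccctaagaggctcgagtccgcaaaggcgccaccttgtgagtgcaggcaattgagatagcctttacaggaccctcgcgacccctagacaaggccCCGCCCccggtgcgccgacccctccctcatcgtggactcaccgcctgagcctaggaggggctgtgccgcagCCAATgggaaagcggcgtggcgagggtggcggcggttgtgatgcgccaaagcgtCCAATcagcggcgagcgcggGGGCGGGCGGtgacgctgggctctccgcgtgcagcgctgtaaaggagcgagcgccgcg
Chkb: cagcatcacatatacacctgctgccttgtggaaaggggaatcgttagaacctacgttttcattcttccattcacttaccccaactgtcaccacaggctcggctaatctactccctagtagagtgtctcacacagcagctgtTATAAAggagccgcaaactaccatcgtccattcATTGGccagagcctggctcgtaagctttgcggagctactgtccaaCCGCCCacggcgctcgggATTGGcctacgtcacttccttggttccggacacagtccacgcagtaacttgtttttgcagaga
Etnk2: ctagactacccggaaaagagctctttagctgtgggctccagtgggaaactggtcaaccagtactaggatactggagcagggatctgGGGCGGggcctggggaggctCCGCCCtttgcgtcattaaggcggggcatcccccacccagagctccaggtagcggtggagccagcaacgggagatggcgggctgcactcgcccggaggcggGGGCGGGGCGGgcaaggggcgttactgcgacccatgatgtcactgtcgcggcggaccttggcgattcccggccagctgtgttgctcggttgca
Pemt: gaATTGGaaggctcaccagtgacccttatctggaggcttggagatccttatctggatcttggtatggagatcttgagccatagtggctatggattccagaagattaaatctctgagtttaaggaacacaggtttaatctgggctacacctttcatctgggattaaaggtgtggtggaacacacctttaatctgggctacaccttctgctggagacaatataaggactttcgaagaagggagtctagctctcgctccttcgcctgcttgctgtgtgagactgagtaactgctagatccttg
The Chka window held 33 CG dinucleotides and 68.7% G and C, with 3 GC boxes and 2 CCAAT matches. The Chkb window held 14 CG dinucleotides and 51.7% G and C, with 1 GC box, 2 CCAAT matches and 1 TATAAA match. The Etnk2 window held 21 CG dinucleotides and 4 GC boxes, while the Pemt window held 3 CG dinucleotides, no GC box and 1 CCAAT match. Over all 32851 RefSeq windows of this length, the median was 7 CG dinucleotides and 52.7% G and C. The GC box was present in 9 of the 13 windows of the set (7 of 8 genes) and in 35.7% of all windows, and the CCAAT box in 5 of 13 and 37.4%. The TATA box letters were present in 1 of 13 and 13.6%, the antioxidant response element in 3 of 13 windows (2 of 8 genes, since overlapping Pcyt1a windows share a match) and 12.4%, and the E-box and the AP-1 site in 0 of 13, against 7.15% and 7.81% of all windows. These matches describe the letters only.

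Recovery of choline from phospholipid was represented by Gpcpd1 (ENSMUSG00000027346), at 132529082 to 132587729 on the minus strand of chromosome 2 of mm10. Its level was 352, 317, 294 and 273 CPM with shLacZ (replicates 1 to 4) and 49.5, 44.7, 49.2 and 58.1 CPM with shEif4ebp3 (replicates 1 to 4). The lowest control lay far above the highest knockdown sample, and both groups were tight, with means of 309 ± 33.8 and 50.4 ± 5.60 CPM (SD, n = 4 each). The log2 fold change was -2.62 ± 0.11 (SE), with an adjusted p of 1.74e-07 from the edgeR fit described above, the source also of the later adjusted p values named edgeR. It ranked 120th from the lowest log2 fold change of the 15375 genes tested. The authors' deposited table lists -2.60 for the same gene.

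The tested genes whose profile over the 8 samples lay nearest to that of Gpcpd1 were Ugt2b1, a glucuronosyltransferase gene, Cyp4a12b, a fatty acid hydroxylase gene, and Slc10a1, which encodes a bile salt uptake transporter. Nearness was the root mean square difference of log2 CPM, each gene centred on its own mean, over 8747 genes with a mean of at least 10 CPM, and was 0.09, 0.16 and 0.19. Their log2 fold changes were -2.69, -2.55 and -2.44. Cyp4a12b has a near-identical copy and its separate count is uncertain.

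Of the 5 other tested genes that the authors annotated with the glycerophosphodiester phosphodiesterase domain, 2 were higher, 1 was lower and 2 did not pass. The lower one was Plcg1, a phospholipase C of receptor signalling, which fell from 60.8 ± 3.51 to 44.9 ± 1.46 CPM (SD, n = 4 each). Gde1, a membrane-bound family member, held 74.2 ± 11.2 CPM with shLacZ and 79.1 ± 9.80 CPM with shEif4ebp3 (SD, n = 4 each), a log2 difference of 0.09 that did not pass (adjusted p = 0.528, edgeR; 0.67 and passing under total-count scaling). Gdpd1, a lysophospholipase D gene, rose from 1.25 ± 0.240 to 4.86 ± 0.363 CPM, and Gdpd5, which also acts on glycerophosphocholine, rose from 1.48 ± 0.200 to 3.56 ± 0.203 CPM. Plcg1, Gde1 and Gdpd5 were named after their values were seen. In the knockdown samples the mean of Gpcpd1 was still above those of Gdpd1 and Gdpd5 but below that of Gde1 in CPM, which is not corrected for length.

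The first step of the choline branch is catalysed by choline kinases, which act as dimers. Chka (ENSMUSG00000024843; chromosome 19, 3851773 to 3894369, plus strand) held 56.5, 75.1, 49.2 and 47.6 CPM with shLacZ (replicates 1 to 4) and 121, 105, 152 and 122 CPM with shEif4ebp3 (replicates 1 to 4). Control replicate 2 was the highest control and knockdown replicate 3 the highest of all, and the groups did not overlap. The log2 fold change was 1.13 ± 0.15 (SE; adjusted p = 0.000104, edgeR), and it was 1.70 under total-count scaling.

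Chkb (ENSMUSG00000022617; chromosome 15, 89426360 to 89429908, minus strand), the beta isoform whose loss in mice causes a muscular dystrophy, went the other way. Its level was 88.9, 80.2, 79.4 and 92.3 CPM with shLacZ and 58.2, 66.2, 71.4 and 71.5 CPM with shEif4ebp3. The groups did not overlap and Chkb fell by 0.35 ± 0.09 (log2, SE; adjusted p = 0.00569, edgeR), but total-count scaling gave 0.21, not past the threshold (adjusted p = 0.0631). Of its exon bases 57.6% are shared with other genes, 1552 of them with the same-strand gene Gm44502, which held 22.1 ± 3.87 and 22.3 ± 1.01 CPM (SD, n = 4 each), so the counts of Chkb are uncertain.

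Because both kinases were measured in each library, their ratio does not depend on the scaling between samples. The Chka/Chkb ratio of counts was 0.636, 0.937, 0.620 and 0.516 with shLacZ (replicates 1 to 4) and 2.09, 1.59, 2.13 and 1.70 with shEif4ebp3 (replicates 1 to 4). Chkb gave more counts in every control and Chka in every knockdown sample, but counts are not corrected for length. Per kilobase of the union of annotated exons, Chkb stayed above Chka with shEif4ebp3 (21.8 ± 2.05 against 10.4 ± 1.60 CPM per kb, SD, n = 4 each). With the longest transcript the knockdown means were 27.2 for Chkb and 26.9 for Chka, and with the authors' gene lengths 39.1 and 53.9. The Chka/Chkb ratio rose 2.82-fold, with an exact two-sided permutation p of 0.0286, the smallest that 4 against 4 samples allow. After Benjamini-Hochberg adjustment over the 5 ratios computed it was 0.0477. All 5 pairs were chosen after the data were seen, which the adjustment does not allow for, so the p-values of the ratios describe separation only. The log2 change of Chka/Chkb was 1.42 in the C-coded samples alone, where 3 samples a group are too few to pass.

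**Figure D2:**
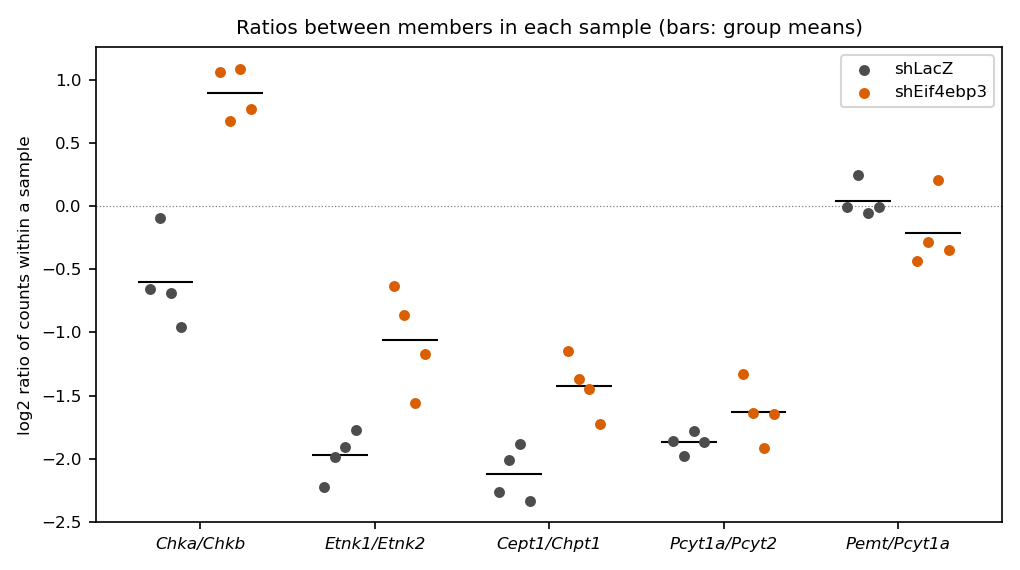
The log2 ratio of counts of 2 genes within each sample (vertical axis) for 5 pairs, with points as samples (4 shLacZ and 4 shEif4ebp3) and bars as group means. The groups are apart for Chka/Chkb, Etnk1/Etnk2 and Cept1/Chpt1 and overlap for Pcyt1a/Pcyt2 and Pemt/Pcyt1a.

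The matching step of the ethanolamine branch is catalysed by ethanolamine kinases. Etnk2 (ENSMUSG00000070644; chromosome 1, 133363572 to 133380336, plus strand) held 486, 410, 409 and 324 CPM with shLacZ and 139, 175, 266 and 205 CPM with shEif4ebp3. Control replicate 4 was the lowest control and knockdown replicate 3 the highest knockdown sample, as they were for Eif4ebp3, yet the groups stayed apart. Etnk2 fell by 1.05 ± 0.19 (log2, SE; adjusted p = 0.000626, edgeR), and by 0.49 under total-count scaling, where it also passed.

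Etnk1 (ENSMUSG00000030275; chromosome 6, 143167221 to 143232307, plus strand) was the 1 gene of the set that did not pass. Its levels of 104, 103, 109 and 94.99 CPM with shLacZ and 89.6, 95.9, 90.2 and 90.9 CPM with shEif4ebp3 overlapped, with a log2 difference of -0.17 ± 0.07 (SE; adjusted p = 0.0586, edgeR). The direction depended on the scaling, since under total-count scaling the value was 0.41 and passed (adjusted p = 0.000415). DESeq2 (adjusted p = 0.0347), the C-coded samples alone (0.0414) and the fit without control replicate 4 (0.0203) called it lower. The Etnk1/Etnk2 ratio of counts was 0.214, 0.252, 0.267 and 0.293 with shLacZ and 0.645, 0.550, 0.339 and 0.443 in the knockdown samples. It rose 1.88-fold without overlap (exact two-sided permutation p = 0.0286, adjusted p = 0.0477 over the 5 ratios), and Etnk2 gave more counts than Etnk1 in all 8 samples. Leaving out any 1 of the 4 control samples gave log2 changes of 0.83 to 0.98 in the same direction that no longer passed.

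The CTP-transferring enzymes catalyse the step that usually limits the rate of each branch. Pcyt1a (ENSMUSG00000005615; chromosome 16, 32430921 to 32475070, plus strand), the enzyme for phosphocholine, held 126, 116, 134 and 122 CPM with shLacZ and 92.5, 83.4, 88.9 and 92.1 CPM with shEif4ebp3. Pcyt1a fell by 0.48 ± 0.07 (log2, SE; adjusted p = 0.000231, edgeR) without overlap between groups. This direction depended on the scaling, and the difference was 0.09 under total-count scaling (adjusted p = 0.308).

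Pcyt2 (ENSMUSG00000025137; chromosome 11, 120610087 to 120617936, minus strand), the enzyme for phosphoethanolamine, held 458, 454, 459 and 444 CPM with shLacZ. These 4 values differed little from each other. In the knockdown samples it held 232, 260, 336 and 289 CPM, all below the controls, with knockdown replicate 3 again the highest. Pcyt2 fell by 0.70 ± 0.11 (log2, SE; adjusted p = 0.000258, edgeR), which became -0.14 with total-count scaling, not past the threshold (adjusted p = 0.193). The Pcyt1a/Pcyt2 ratio of counts overlapped between the groups, at 0.255 to 0.292 with shLacZ and 0.265 to 0.399 in the knockdown samples (exact two-sided permutation p = 0.114, adjusted p = 0.114). The further phosphocholine CTP-transferring enzyme gene Pcyt1b was below the filter on counts, with 0.359 ± 0.113 and 0.312 ± 0.173 CPM (SD, n = 4 each), and was named after its values were seen.

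The last step is carried out by Cept1, which accepts both CDP-choline and CDP-ethanolamine, and by Chpt1, which prefers CDP-choline. Cept1 (ENSMUSG00000040774; chromosome 3, 106502260 to 106547802, minus strand) held 52.1, 56.9, 56.5 and 57.1 CPM with shLacZ and 74.4, 72.2, 64.1 and 70.9 CPM with shEif4ebp3. Every knockdown sample lay above every control, and Cept1 rose by 0.34 ± 0.07 (log2, SE; adjusted p = 0.00207, edgeR), or by 0.91 under total-count scaling. Of its exon bases 24.9% are shared with genes on the opposite strand, mainly Dennd2d, which held 8.44 ± 1.24 and 10.3 ± 0.698 CPM (SD, n = 4 each).

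Chpt1 (ENSMUSG00000060002; chromosome 10, 88452745 to 88504073, minus strand) held 250, 229, 208 and 288 CPM with shLacZ and 165, 186, 175 and 235 CPM with shEif4ebp3. In both groups replicate 4, the D-coded sample, was the highest, and knockdown replicate 4 lay above 2 controls. Chpt1 fell by 0.36 ± 0.13 (log2, SE; adjusted p = 0.0335, edgeR), a call lost on leaving out control replicate 1 or 4, or any of knockdown replicates 1, 2 and 3 (adjusted p = 0.0671, 0.0768, 0.0909, 0.071 and 0.0727) and with upper-quartile factors (adjusted p = 0.096). Under total-count scaling the difference was 0.20 and did not pass. With the replicate number as a block the adjusted p was 0.0104. The Cept1/Chpt1 ratio of counts rose 1.63-fold, from 0.208, 0.248, 0.271 and 0.199 in the controls to 0.451, 0.388, 0.367 and 0.302 in the knockdown samples, without overlap (exact two-sided permutation p = 0.0286, adjusted p = 0.0477 over the 5 ratios). Without control replicate 1 or 4 the groups stayed apart and the log2 change was 0.65 or 0.63. In neither case did the change pass by the unadjusted permutation p, although it passed without control replicate 2 or 3.

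Pemt (ENSMUSG00000000301; chromosome 11, 59970614 to 60046489, minus strand), the methyltransferase of the liver route, held 125, 137, 129 and 121 CPM with shLacZ and 68.4, 68.4, 103 and 72.3 CPM with shEif4ebp3. Knockdown replicate 3 stood between the other knockdown samples and the controls, and the groups did not overlap. Pemt fell by 0.72 ± 0.13 (log2, SE; adjusted p = 0.000661, edgeR), or by 0.88 without knockdown replicate 3, but under total-count scaling the difference was -0.16 and did not pass (adjusted p = 0.22). The Pemt/Pcyt1a ratio of counts, which sets the methylation route beside the CDP-choline route, overlapped between the groups, at 0.962 to 1.19 with shLacZ and 0.740 to 1.16 in the knockdown samples (exact two-sided permutation p = 0.114, adjusted p = 0.114).

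**Figure D3:**
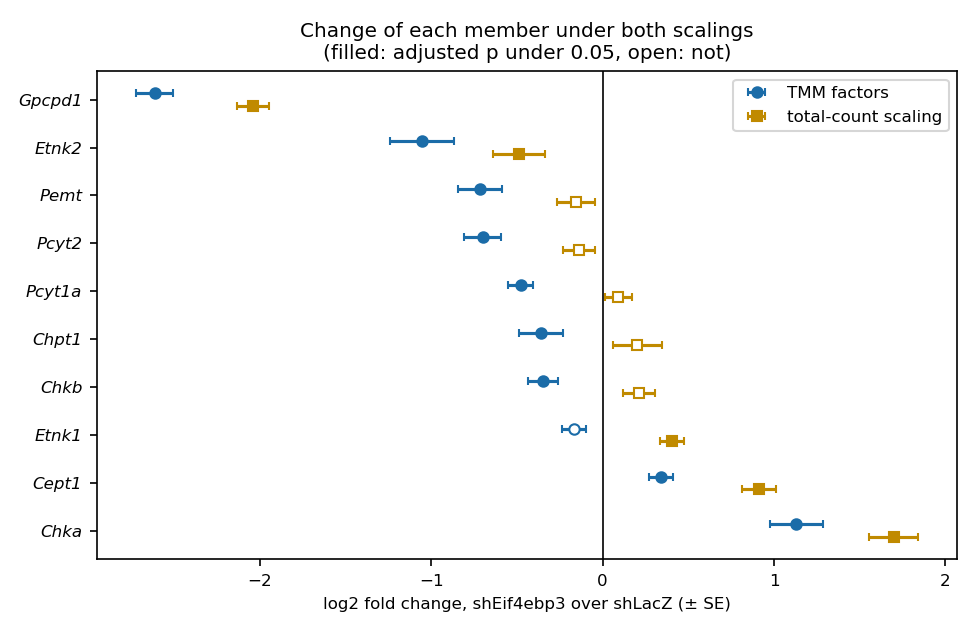
Log2 fold change of knockdown over control with its SE (horizontal axis) for the 10 genes, with TMM factors (circles) and with total-count scaling (squares); filled symbols have an adjusted p under 0.05. Gpcpd1, Etnk2, Chka and Cept1 keep their side of 0 and their call under both scalings, and Chkb, Pcyt1a, Chpt1 and Etnk1 lie on opposite sides of 0.

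Levels of different genes were compared as CPM per kilobase of the union of annotated exons (CPM per kb). In the controls the order was Pcyt2 (104 ± 1.55), Etnk2 (89.2 ± 14.4), Pemt (60.9 ± 3.29), Gpcpd1 (42.4 ± 4.64), Chpt1 (29.3 ± 4.06), Chkb (27.8 ± 2.09), Cept1 (17.9 ± 0.756), Pcyt1a (16.8 ± 1.04), Etnk1 (7.27 ± 0.413) and Chka (4.75 ± 1.05 CPM per kb, SD, n = 4 each). Pcyt2 and Etnk2, Chpt1 and Chkb, and Cept1 and Pcyt1a were neighbours whose ranges overlapped. In the knockdown samples Pcyt2 was still first at 64.2 ± 10.2 CPM per kb, followed by Etnk2 at 43.0 ± 11.8 and Pemt at 37.1 ± 7.89; the range of Etnk2 overlapped both. Gpcpd1 moved from the fourth to the ninth place, at 6.92 ± 0.769 CPM per kb, and Chka from the tenth to the eighth, at 10.4 ± 1.60 CPM per kb. In these samples the range of Chka overlapped that of Pcyt1a, and the range of Gpcpd1 that of Etnk1. With the length of the longest transcript Gpcpd1 moved from the fourth to the tenth place and Chka from the tenth to the sixth, and with the authors' own gene lengths Gpcpd1 moved from the fifth to the tenth and Chka from the tenth to the fifth. Pcyt2, Etnk2 and Pemt were the first 3 and Chka the last in the controls with each of these lengths. The place of Pcyt1a was the eighth, the seventh or the fourth with these lengths, so the middle of the order is uncertain.

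The supply and use of choline outside the CDP-base pathway were followed in 6 further lists of genes grouped by function. Their counts stand beside 29.5% higher and 27.8% lower among all genes tested (63.9% and 7.72% under total-count scaling). Of 15 genes of choline uptake and oxidation tested, 10 were lower and 4 higher, with a median of -0.82 (8 lower and 6 higher with a median of -0.26 under total-count scaling). Bhmt, which uses betaine made from choline to remethylate homocysteine, fell from 18184 ± 1574 to 5125 ± 1008 CPM (SD, n = 4 each). Its relative Bhmt2 fell from 456 ± 49.4 to 166 ± 23.0 CPM, Dmgdh, dimethylglycine dehydrogenase, from 939 ± 57.1 to 294 ± 43.3 CPM, and Sardh, sarcosine dehydrogenase, from 1211 ± 11.3 to 463 ± 95.2 CPM. All 4 also fell under total-count scaling. The 4 higher genes of this list, named after their values were seen, were the choline transporter-like genes Slc44a1, Slc44a2 and Slc44a3 and the transporter gene Flvcr1, with log2 fold changes of 0.49, 0.96, 0.89 and 1.08.

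The methyl donor cycle supplies S-adenosylmethionine to PEMT. Of its 13 genes tested, 7 were lower and 2 higher, with a median of -0.35 (6 lower, 6 higher and a median of 0.20 under total-count scaling). Mat1a, the adult-liver synthetase of S-adenosylmethionine, fell from 12452 ± 2581 to 2808 ± 744 CPM, Ahcy, which removes the product S-adenosylhomocysteine, from 4609 ± 882 to 1065 ± 283 CPM, and Gnmt, glycine N-methyltransferase, from 1834 ± 95.1 to 611 ± 224 CPM. Ahcyl1, an Ahcy-like gene, fell from 196 ± 32.8 to 101 ± 6.12 CPM (SD, n = 4 each). These 4 also fell under total-count scaling. Their log2 fold changes of -2.15, -2.11, -1.58 and -0.95 stood beside -0.72 for Pemt, and the differences between genes were not tested.

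Of 8 other genes of head-group synthesis tested, 4 were lower and 2 higher (median -0.17, and 1 lower and 5 higher with a median of 0.39 under total-count scaling). Etnppl, an enzyme that breaks down phosphoethanolamine, fell from 386 ± 108 to 97.4 ± 33.9 CPM, and Selenoi, an ethanolamine phosphotransferase, from 82.7 ± 7.95 to 51.2 ± 3.43 CPM (SD, n = 4 each). Under total-count scaling Etnppl still fell, and Selenoi, at -0.12, did not pass. The phosphatase genes Phospho2 and Phospho1 had log2 fold changes of -0.45 and 0.71, and 89.6% of the exon bases of Phospho1 are shared with other genes. With the replicate number as a block 3 genes of this list were lower and 1 higher, and 1 was higher without control replicate 1 or 3 or without knockdown replicate 1, 2 or 4.

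Of 13 genes of phospholipid transfer and export, 8 were lower and 2 higher (median -0.42, and 2 lower and 5 higher with a median of 0.16 under total-count scaling). Apob, the core protein of very-low-density lipoprotein, fell from 6121 ± 496 to 2996 ± 157 CPM, and Lcat, which esterifies cholesterol with a fatty acid of phosphatidylcholine, from 438 ± 26.7 to 228 ± 36.9 CPM. Stard7, a phosphatidylcholine carrier to mitochondria, fell from 167 ± 5.02 to 108 ± 8.71 CPM, or by 0.63 on the log2 scale, which was -0.07 under total-count scaling and did not pass. Pltp, the plasma phospholipid transfer protein gene, rose from 51.1 ± 6.99 to 104 ± 4.83 CPM (SD, n = 4 each).

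**Figure D4:**
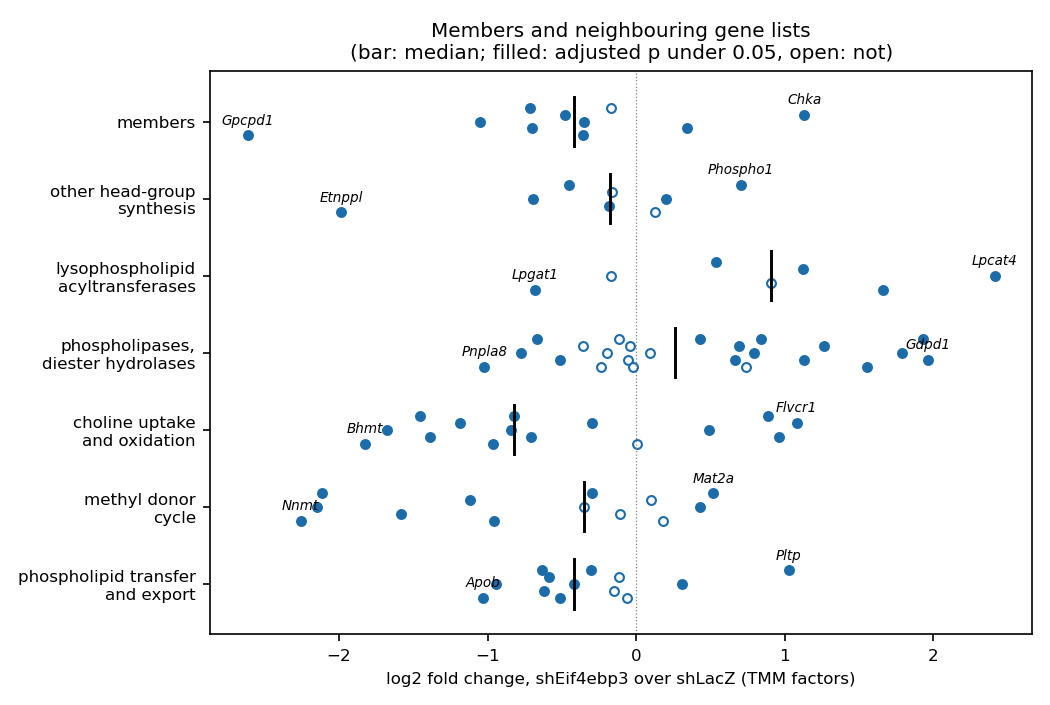
Log2 fold change of knockdown over control (horizontal axis, TMM factors) of each tested gene in the set of 10 (members) and in 6 neighbouring lists; black bars are medians, filled points have an adjusted p under 0.05, and the lowest and highest gene of each list is named. The median is -0.42 for the 10 genes, -0.82 for choline uptake and oxidation and 0.91 for the lysophospholipid acyltransferases.

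By number, genes that remodel or cut phospholipids were more often higher than lower. Of all genes tested, 29.5% were higher and 27.8% lower (63.9% and 7.72% under total-count scaling). On the TMM scale the summed level of each list was lower. For the lysophospholipid acyltransferases it was 381 to 465 CPM with shLacZ and 331 to 362 CPM with shEif4ebp3. For the phospholipases and diester hydrolases it was 926 to 949 CPM with shLacZ and 811 to 851 CPM with shEif4ebp3. The TMM factors, by which CPM are divided, were 0.776 to 0.89 with shLacZ and 1.15 to 1.26 with shEif4ebp3. Without these factors the sums of the phospholipases and diester hydrolases would be higher with shEif4ebp3, so their direction depended on the scaling. Of 7 lysophospholipid acyltransferases tested, 4 were higher and 1 lower (median 0.91, and 6 higher and 0 lower under total-count scaling). Lpcat2 rose from 3.53 ± 0.447 to 11.2 ± 2.93 CPM, Lpcat4 from 1.06 ± 0.496 to 5.72 ± 0.859 CPM and Lpcat1 from 3.68 ± 0.708 to 8.03 ± 0.739 CPM, all low levels in liver. Lpcat3, named after its values were seen, held 115 ± 17.7 CPM with shLacZ and 102 ± 0.450 CPM with shEif4ebp3. Its log2 difference of -0.17 did not pass (adjusted p = 0.164, edgeR), and was 0.39 and passing under total-count scaling. Lpgat1 fell from 261 ± 40.7 to 163 ± 14.3 CPM (SD, n = 4 each), a call lost under total-count scaling. Of 24 phospholipases and diester hydrolases tested, 11 were higher and 4 lower (median 0.26, and 18 higher and 2 lower under total-count scaling). Pnpla8, a mitochondrial phospholipase, and Lypla1, a lysophospholipase, fell by 1.02 ± 0.08 and 0.78 ± 0.07 (log2, SE), and Abhd4, a lipase of N-acylethanolamine synthesis, rose by 0.84 ± 0.08. In the same samples 17 of 19 macrophage markers were higher, and their part in these changes was not tested.

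All 10 genes carry the authors' annotation to the glycerophospholipid pathway of KEGG. Among the other 72 tested genes with that annotation, 27 were higher, 21 lower and 24 did not pass, with a median log2 fold change of 0.01. The shares over all genes tested were 29.5% higher and 27.8% lower. The authors' deposited table marked 3 of the 10 as significant, Chka as up and Gpcpd1 and Etnk2 as down, and 6.76% of all 55536 genes (4.60% up and 2.17% down). Only 15375 of these genes passed the filter on counts, as all 10 did, so the 2 shares are not alike. The mark did not rest on adjusted p alone. In that table, named for DESeq2, the unmarked Pemt, Chkb, Pcyt1a, Pcyt2, Cept1 and Chpt1 had adjusted p of 1.4e-06, 0.00121, 5.87e-09, 4.41e-09, 0.000105 and 0.023. Etnk1, also unmarked, had 0.0593. The authors' log2 fold changes had the same sign as those given here for all 10.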

How the data were processed

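The authors deposited one estimated count per gene and sample (an expected count), made from the reads and left without normalisation; 10.9% are not whole and were rounded. Per the file headers, the deposited table of the authors' comparison holds the fold change as a ratio, its log2 value, p-values and gene lengths; the table is named for DESeq2, with no version or settings stated. The submitters' processing notes name mm10 and the tools SAMtools 1.9, GATK 3.8, Bowtie2 2.2.9 and fastp 0.19.5; counting program, annotation and strandedness: not given in the sources used here, so reads of overlapping genes cannot be told apart. Per the labels' protocols, RNA was Trizol-extracted, DNase-treated and depleted of ribosomal RNA.

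The 645 assembled loci without a gene identifier held 0.676 to 1.08% of a sample's counts and were left out. In R 4.3.3, edgeR 4.0.16 (filterByExpr, TMM factors, glmQLFit and glmQLFTest) compared the groups over 15375 genes, with Benjamini-Hochberg adjustment over all of them. This fit was tested on simulated data in which few genes changed, equally often up and down. That setting does not test the choice of scaling. CPM used the total count in genes times the TMM factor. Positions and exon lengths are from GENCODE M21. Alternatives used DESeq2 1.42.0 and limma 3.58.1.

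The 10 genes and all lists were chosen with earlier results of these data known, and the ratios after the data were seen. The named genes are the 10, Eif4ebp3, the up to 4 called genes of smallest p in each of 6 lists, and the 3 genes nearest to the most changed of the 10; exceptions are marked, and Gm44502 and Dennd2d are named as overlapping genes. Lists are described by counts and medians, without a set test. The labels call the samples replicates and state no more, so the p-values reflect only how far these samples vary; every pair of replicates differed by more than counting error (chi-square over its degrees of freedom at least 9.82).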

Additional observations from a re-analysis of the deposited data

Results flagged for a closer look

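Among 30 groups of 4 values (the 10 genes and the 5 ratios in each group), 3 held a sample far from the others by Dixon's criterion, which chance gives in about 1 in 20 groups. Pemt held 103 CPM in knockdown replicate 3, against 68.4 to 72.3 CPM in the other knockdown samples. Cept1 held 52.1 CPM in control replicate 1, against 56.5 to 57.1 CPM in the other controls. The log2 Pemt/Pcyt1a ratio was 0.249 in control replicate 2, against -0.056 to -0.005 in the other controls. The causes were not tested.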

How the results depend on the processing

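Over 20 alternatives, Gpcpd1 (-2.75 to -2.04), Etnk2 (-1.24 to -0.49) and Chka (1.03 to 1.70) kept their direction and their call in each. Total-count scaling, which shifted the median of all genes to 0.56, left 2 of the 10 genes lower and gave 9831 higher and 1187 lower genes in the whole table. Under it the log2 fold changes of Chkb (0.21), Pcyt1a (0.092), Chpt1 (0.20), Etnk1 (0.41) and Phospho2 (0.12) turned positive. With a minimum fold of 1.5, 1 of the 10 was higher and 2 lower, and 3721 genes were called in all. Leaving out each sample in turn gave 2 higher and 6 to 7 lower genes of the 10 and 7855 to 9304 calls in all. The samples share only a replicate number between groups: deviations of same-numbered samples had correlations of -0.13, -0.04, 0.06 and 0.15 over genes. Among the controls, only replicate 3 correlated best with the knockdown sample of its own number. With the replicate block 2 of the 10 were higher and 7 lower, and 8482 genes were called against 8800; no call among the 10 changed. Without 1 sample the ratio changes ranged from 1.38 to 1.66 (Chka/Chkb), 0.77 to 1.08 (Etnk1/Etnk2) and 0.61 to 0.80 (Cept1/Chpt1). By the unadjusted permutation p, Etnk1/Etnk2 no longer passed without any 1 of the 4 controls, nor Cept1/Chpt1 without control replicate 1 or 4. The groups stayed apart in each case. The lowest count of any of the 10 genes in a sample was 957. Precision is limited by shared exons for Chkb and Cept1 and by low counts for Lpcat1, Lpcat2 and Lpcat4.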
